A study of Mus musculus with 12 samples.

Results

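The imprinted growth genes described here are 10 mouse genes: H19, Igf2, Cdkn1c, Grb10, Dlk1, Meg3, Rian, Peg3, Mest and Plagl1. They are 10 of the 20201 genes in the table and were taken by symbol through their Ensembl identifiers. An imprinted gene is read from only 1 of the parental chromosomes in most tissues where it is imprinted, and the reads here do not separate the parental copies. The genes were chosen by their levels in these same libraries, since results for the Bmal1 knockout label against the wildtype label were already known. Levels and differences between these labels are therefore given for the 10 genes as a description, with standard errors and intervals. Calls of the test across all genes are also counted for them, and nothing is read from those counts.

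RNA was sequenced from primary myotubes, the fused muscle cells that cultured myoblasts form, and the myoblasts came from mice with floxed Bmal1. The cultures were infected for 48 hours with an adenovirus carrying Cre recombinase, which cuts out floxed DNA, or with an empty control virus, and were then held for 6 hours in 21% or 1% oxygen. The labels give 6 libraries as Bmal1 knockout with 1% oxygen (Myotube10, 11 and 12 and Myotube4, 5 and 6) and 6 libraries as wildtype with 21% oxygen (Myotube7, 8 and 9 and Myotube1, 2 and 3). In the labels genotype and oxygen go together and cannot be told apart, and no label gives the virus that a library's culture received. The titles form 2 runs in each label, so there are 4 blocks of 3 libraries, and no label says how Myotube7 to 12 differ from Myotube1 to 6. The labels name no animal, culture or batch, so errors measure a spread between libraries that may be technical.

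Reads per library numbered 6376584 to 12463339, and values are normalized counts, that is, reads divided by 1 factor per library. Arntl, the gene that encodes BMAL1, lay at 41.7 to 48.6 in the knockout libraries and 133 to 179 in the wildtype libraries. Egln3 and Slc2a1, 2 genes that low oxygen induces, followed the titles and not the oxygen label. Egln3 lay at 2036 to 2143 in Myotube10 to 12 and 194 to 262 in Myotube4 to 6, against 2199 to 2258 in Myotube7 to 9 and 241 to 270 in Myotube1 to 3. Slc2a1 lay at 3168 to 3554 and 549 to 588 in these knockout blocks, against 3457 to 3514 and 475 to 553 in these wildtype blocks. No library was moved, and no difference is attributed to oxygen. The library Myotube2 stood apart, with 29.6% of genes at 0 against 13.03% to 21.9% in the others. The summed level of 7 myotube markers was 18777 to 21567 in knockout and 12779 to 16131 in wildtype libraries. Acta1, 1 of the 7, averaged 9686 in Myotube10 to 12 and 9100 in Myotube4 to 6, against 4827 in Myotube7 to 9 and 3679 in Myotube1 to 3. Single markers of this list moved in both directions between the labels, as given below. Markers of macrophages summed to at most 7.30, of adipocytes to at most 1.76 and of Schwann cells to at most 15.3 in any library. Fibroblast markers were high in all blocks, at 63452 to 67979 in Myotube10 to 12 and 40963 to 52208 in Myotube4 to 6, both knockout. In wildtype they summed to 47772 to 57320 in Myotube7 to 9 and 46717 to 51625 in Myotube1 to 3. Endothelial markers summed to 1078 to 1343 in knockout and 780 to 892 in wildtype libraries. In cultures measured in bulk, fewer cells of a type and less RNA per cell cannot be told apart.

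Several of the genes act on the same growth axis. Igf2, usually read from the paternal copy, encodes insulin-like growth factor 2, which signals through the IGF1 and insulin receptors and is cleared by the IGF2 receptor. H19, usually read from the maternal copy, is a long non-coding RNA next to Igf2, and both genes are known to be active in differentiating muscle cells. Cdkn1c, maternal, encodes the cell cycle inhibitor p57, and Grb10, maternal in most tissues, encodes an adaptor that restrains insulin and IGF receptor signalling. Dlk1, paternal, encodes a membrane protein of the Notch ligand family, while Meg3 and Rian are maternal non-coding RNAs of the same domain. Peg3 and Plagl1, both paternal, encode zinc finger proteins, and Mest, paternal, encodes a hydrolase-like protein.

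The genes lie on 5 chromosomes in mm10. H19 (ENSMUSG00000000031) is at chr7:142575529-142578143 and Igf2 (ENSMUSG00000048583) at chr7:142650766-142666816, both on the minus strand and 72.6 kb apart. Cdkn1c (ENSMUSG00000037664) is on the same strand at chr7:143458339-143461050, 880 kb from H19. Peg3 (ENSMUSG00000002265) is at chr7:6703892-6730431, minus strand, in a separate domain. Dlk1 (ENSMUSG00000040856, chr12:109452823-109463336), Meg3 (ENSMUSG00000021268, chr12:109541001-109571726) and Rian (ENSMUSG00000097451, chr12:109603940-109661716) follow each other on the plus strand, with gaps of 77.7 kb and 32.2 kb. Mest (ENSMUSG00000051855) is at chr6:30723547-30748465, plus strand, Plagl1 (ENSMUSG00000019817) at chr10:13060504-13131694, plus strand, and Grb10 (ENSMUSG00000020176) at chr11:11930508-12038683, minus strand. Copg2 overlaps Mest on the opposite strand and the low antisense gene Igf2os (mean 3.76) overlaps Igf2. On the same strand, exons of Gm49394, a protein-coding gene with no values here, overlap those of Igf2. Gm26945 (mean 11.71) lies across Rian on the same strand, without overlap of exons. The kit kept strand, but no source used here gives the strand setting of the counting, so overlapping genes are uncertain.

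MicroRNA hairpins lie on the same strand within 5 of the genes, 8 hairpins in all in the RefSeq table for GRCm38.p6. H19 holds miR-675 within an exon, Igf2 holds miR-483 and Mest holds miR-335 within introns. These host transcripts were all higher in the knockout libraries, as was Rian (by 0.22 on the log2 scale over both runs). Only the 6 mature sequences of H19, Igf2 and Mest are shown. They are written 5′ to 3′ with the seed, bases 2 to 8, in capitals.
miR-675-5p, in H19: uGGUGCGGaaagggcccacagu
miR-675-3p, in H19: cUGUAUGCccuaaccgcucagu
miR-483-5p, in Igf2: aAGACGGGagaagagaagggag
miR-483-3p, in Igf2: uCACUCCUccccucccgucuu
miR-335-5p, in Mest: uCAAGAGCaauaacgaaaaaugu
miR-335-3p, in Mest: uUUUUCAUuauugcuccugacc
No seed is shared among these 6, nor with the 9 mature sequences hosted by Meg3 (3) and Rian (6). Mature microRNAs were not measured in these libraries, and the host values below are those of the long transcripts.

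BMAL1 binds the E-box CACGTG, and the factor induced by low oxygen binds sites with the core ACGTG or GCGTG. The RefSeq promoter table (GRCm38.p6, 250 bases before to 50 after a start) held 15 windows for 8 of the genes, and H19 and Cdkn1c had none. CACGTG, searched on both strands, was found in 1 of the 15 windows, against 7.15% of 32851 windows of all genes. That window belongs to Plagl1, and the stretch around the match is shown, chr10:13090625-13090680, plus strand, with the motif in capitals, 182 bases before the start.
Plagl1: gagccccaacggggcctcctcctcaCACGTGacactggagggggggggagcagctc
ACGTG, which lies inside CACGTG, was found in 3 of the 15 windows (Igf2, Plagl1 and Dlk1), against 19.62% of all windows, and GCGTG in 4 of the 15, against 32.39%. The Igf2 match is shown because Igf2 stood higher in the knockout libraries. It lies 22 bases before a start, chr7:142658797-142658851, written on the minus strand of the gene with the match to the reverse complement of ACGTG in capitals.
Igf2: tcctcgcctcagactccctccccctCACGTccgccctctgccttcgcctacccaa
A match is a run of letters and no measured site of binding.

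**Figure D1:**
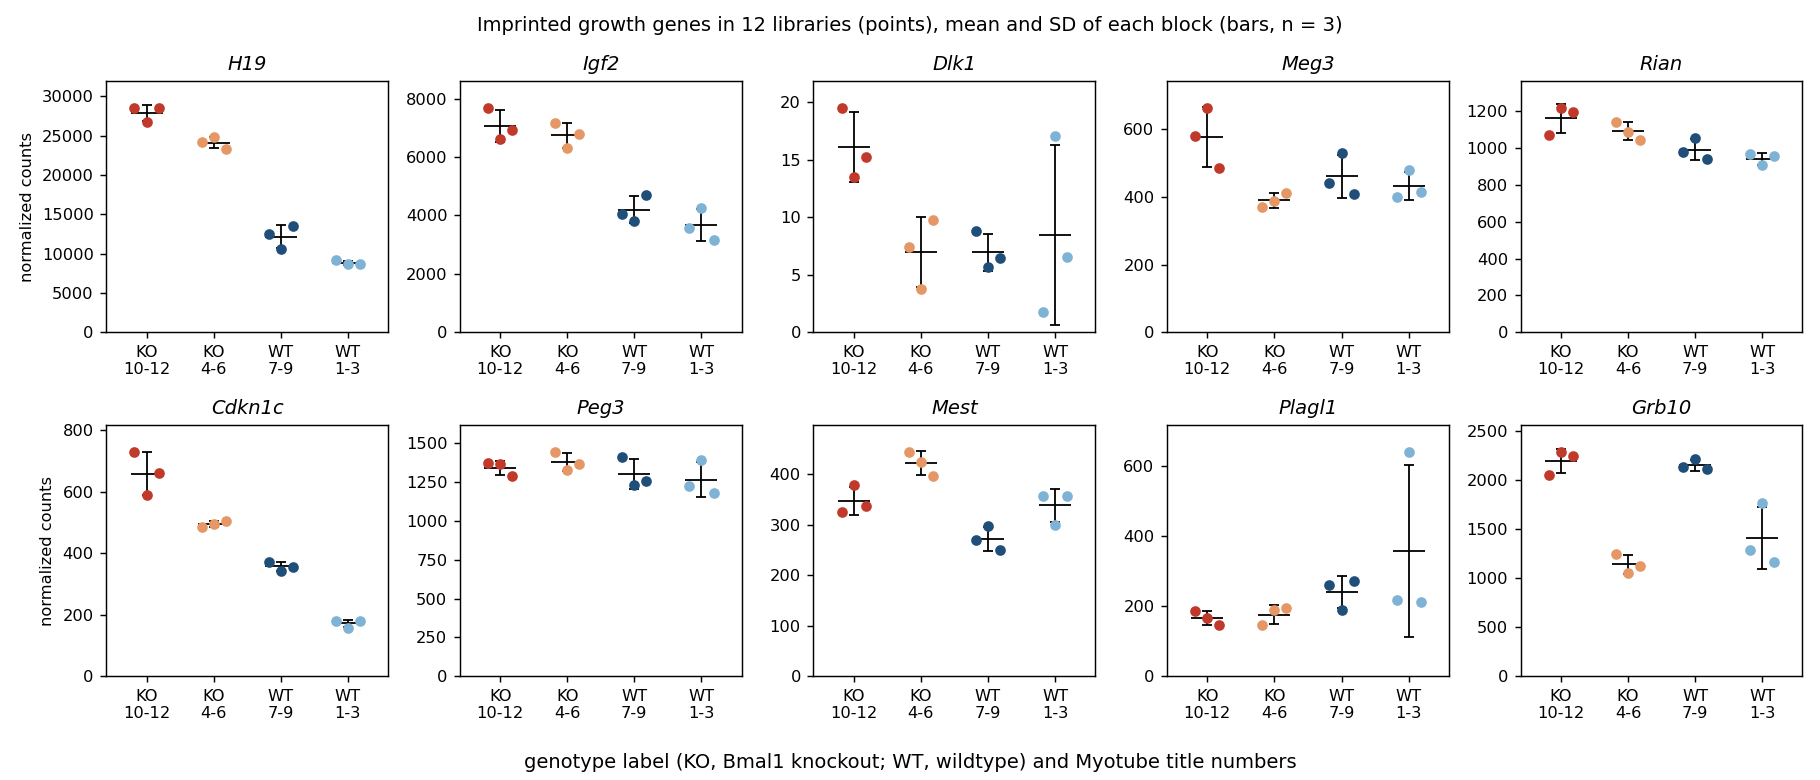
Normalized counts (vertical axes, each starting at 0) of the 10 genes in the 12 libraries (points), by block along the horizontal axis, with the mean and SD of each block (bars, n = 3). H19, Igf2 and Cdkn1c lie higher in every knockout library than in any wildtype library, Grb10 follows the run of titles, and Plagl1 has 1 high wildtype library, at 639.6.

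Per kilobase of exon, the genes spanned more than 3 orders of magnitude. H19 averaged 7414 normalized counts per kb over the 12 libraries (range 3499 to 11589) and ranked between 21 and 59 among 12495 genes in each library. Igf2 averaged 946 per kb (550 to 1342), followed by Cdkn1c at 206 (77.5 to 358) and Grb10 at 190 (116 to 251), whose range lies within that of Cdkn1c. Peg3 at 99.1 (88.6 to 108) and Mest at 87.5 (63.3 to 113) overlapped too, and Rian followed at 57.4 (49.7 to 66.8), a range that met those of Mest and Plagl1. Plagl1 at 30.0 (18.7 to 81.8) and Meg3 at 25.7 (20.4 to 36.7) overlapped, and Dlk1 was last at 1.70 (0.311 to 3.45). H19 and Igf2 were thus separated from each other and from all the others in every library, while neighbours from Cdkn1c down to Meg3 overlapped, apart from Grb10 and Peg3, and Dlk1 lay below all the others.

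Over both runs, H19 had the greatest difference between the labels among the 10, on the deposited scale. It stood at 28444.5, 26728 and 28508 normalized counts in Myotube10 to 12 and 24176, 24774 and 23350 in Myotube4 to 6, all knockout. It stood at 12442, 10569 and 13480 in Myotube7 to 9 and 9148, 8640 and 8607 in Myotube1 to 3, all wildtype. The lowest knockout library lay above the highest wildtype library, and within each label the later titles lay above the earlier ones. Averaged over both runs the difference was 1.33 on the log2 scale (SE 0.056, 95% interval 1.21 to 1.45), 2.51-fold higher in the knockout libraries. Within Myotube7 to 12 it was 1.20 and within Myotube1 to 6 it was 1.45 (SE 0.079 each). With quantile normalization, which forces all libraries to the same distribution, the value over both runs was 0.88, below the 1.16 of Cdkn1c on that scale.

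Igf2, the neighbour of H19, had the same order of labels with a smaller step. It stood at 7680, 6608 and 6913 normalized counts in Myotube10 to 12 and 7150, 6296 and 6771 in Myotube4 to 6, all knockout. In wildtype it stood at 4061, 3811 and 4698 in Myotube7 to 9 and 3582, 4250 and 3150 in Myotube1 to 3. The labels did not overlap, and the runs within a label did. The difference over both runs was 0.82 (SE 0.076, 95% interval 0.66 to 0.99), 1.77-fold higher in knockout, with 0.76 within Myotube7 to 12 and 0.89 within Myotube1 to 6 (SE 0.11 each). With quantile normalization it was 0.47.

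The balance of H19 to Igf2 therefore differed as well. Per kb of exon, the ratio of H19 to Igf2 was 9.21 ± 0.519 in Myotube10 to 12 and 8.35 ± 0.703 in Myotube4 to 6, both knockout, against 6.75 ± 0.345 in Myotube7 to 9 and 5.68 ± 0.845 in Myotube1 to 3, both wildtype (SD, n = 3 each). The lowest knockout ratio was 7.87 and the highest wildtype ratio 7.13, so the labels did not overlap. A ratio within a library does not depend on how libraries are scaled to each other, and it was computed after the values had been seen.

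Cdkn1c differed by label and by run of titles. It stood at 729, 589 and 660 normalized counts in Myotube10 to 12 and 486, 494 and 504 in Myotube4 to 6, all knockout, and at 373, 343 and 355 in Myotube7 to 9 and 180, 158 and 178 in Myotube1 to 3, all wildtype. The 4 blocks did not overlap one another, with wildtype Myotube1 to 3 at the foot and knockout Myotube10 to 12 at the top. The label difference over both runs was 1.20 (SE 0.064, 95% interval 1.06 to 1.34), 2.30-fold higher in knockout. It was 0.88 within Myotube7 to 12 and 1.52 within Myotube1 to 6 (SE 0.091 each).

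Rian and Mest stood slightly higher in the knockout libraries. Rian, host of small nucleolar RNAs and microRNAs, stood at 1068, 1218 and 1197 normalized counts in Myotube10 to 12 and 1143, 1087 and 1046 in Myotube4 to 6. In wildtype it stood at 980, 1053 and 939 in Myotube7 to 9 and 966, 906 and 956 in Myotube1 to 3. Each knockout block of Rian lay above its wildtype block, but the labels overlapped by 1 library when the runs were pooled (lowest knockout 1046, highest wildtype 1053). The difference over both runs was 0.22 (SE 0.051, 95% interval 0.11 to 0.33), and it was 0.060 with quantile normalization. It was 0.062 when 11 abundant genes, Lars2 and others not annotated as protein-coding, were left out and libraries scaled to their totals.

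Mest stood at 326, 380 and 338 in Myotube10 to 12 and 444, 426 and 398 in Myotube4 to 6, all knockout, against 270, 298 and 250 in Myotube7 to 9 and 357, 300 and 358 in Myotube1 to 3, all wildtype. Each knockout block again lay above its wildtype block, and both later blocks had lower means than the earlier ones. The label difference was 0.34 (SE 0.072, 95% interval 0.18 to 0.49), and 0.18 with the abundant genes left out. That scaling lowered the median log2 difference of all genes to -0.16, against -0.0015 on the deposited scale.

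Copg2, which overlaps Mest on the other strand, moved the other way from it. Its block means were 163 ± 16.7 in Myotube10 to 12 and 169 ± 11.02 in Myotube4 to 6, both knockout, and 230 ± 43.1 in Myotube7 to 9 and 293 ± 66.8 in Myotube1 to 3, both wildtype (SD, n = 3 each). Copg2 fell in the knockout libraries by 0.63 (SE 0.12, limma adjusted p = 0.00146).

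Plagl1 was the gene with the lowest knockout level relative to wildtype. It stood at 185, 167 and 148 normalized counts in Myotube10 to 12 and 146, 188 and 195 in Myotube4 to 6, all knockout. In wildtype it stood at 259, 189 and 273 in Myotube7 to 9 and 217, 640 and 212 in Myotube1 to 3. Each knockout block lay below its wildtype block, and the value of 640 came from Myotube2, the library with the most genes at 0. The difference over both runs was -0.67 (SE 0.23, 95% interval -1.17 to -0.16), and -0.40 (SE 0.11) without Myotube2. Its limma adjusted p over both runs was 0.0471, and 0.0135 without Myotube2, but it did not stay under 0.05 in 10 of 23 other settings. Within Myotube7 to 12 the limma adjusted p was 0.337 and within Myotube1 to 6 it was 0.105.

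Meg3, Peg3 and Grb10 had label differences near 0 over both runs on the deposited scale. Meg3 averaged 577 ± 88.2 in Myotube10 to 12 and 390 ± 21.3 in Myotube4 to 6, both knockout, and 461 ± 63.1 in Myotube7 to 9 and 431 ± 41.5 in Myotube1 to 3, both wildtype (SD, n = 3 each). The difference was 0.09 (95% interval -0.10 to 0.28) over both runs, 0.32 within Myotube7 to 12 and -0.14 within Myotube1 to 6.

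Peg3 was the steadiest of the 10, from 1286 to 1441 in knockout and from 1181 to 1409 in wildtype libraries. Its difference was 0.09 (95% interval -0.03 to 0.20), and it turned to -0.12 with quantile normalization and -0.073 with the abundant genes left out.

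Grb10 stood at 2051, 2282 and 2241 in Myotube10 to 12 and 1247, 1055 and 1128 in Myotube4 to 6, all knockout, against 2128, 2210 and 2106 in Myotube7 to 9 and 1289, 1764 and 1168 in Myotube1 to 3, all wildtype. All 6 libraries of the later titles lay above all 6 of the earlier titles, whatever the label. The label difference of Grb10 was -0.13 (95% interval -0.31 to 0.06) over both runs. It was 0.028 within Myotube7 to 12 (95% interval -0.24 to 0.29) and -0.28 within Myotube1 to 6 (95% interval -0.54 to -0.015). Over both runs it was -0.28 with the abundant genes left out and -0.35 with quantile normalization. An adjusted p under 0.05 was reached in 2 of 23 other settings over both runs and 3 of 22 within Myotube1 to 6.

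Dlk1 was at the limit of detection, with 2 to 16 reads per library. It stood at 19.5, 13.5 and 15.3 normalized counts in Myotube10 to 12 and 7.42, 3.73 and 9.76 in Myotube4 to 6, all knockout, against 8.77, 5.66 and 6.42 in Myotube7 to 9 and 1.76, 17.0 and 6.54 in Myotube1 to 3, all wildtype. In these libraries 3 reads, the floor taken here, equal 2.12 to 5.85 normalized counts, for counting error alone. Its mean of 9.61 fell below the minimum mean of 10 that a gene needed to enter the tests, so 9 of the 10 genes were in the fit. With no filter its label difference was 0.59, with a 95% interval from -0.34 to 1.51. Within Myotube7 to 12 it was 1.11 (95% interval -0.20 to 2.42), with the 3 knockout libraries above the 3 wildtype ones, and within Myotube1 to 6 it was 0.064 (95% interval -1.24 to 1.37). Knockout Myotube10 to 12 also lay above Myotube4 to 6 without overlap, by 1.17 (95% interval -0.14 to 2.47, limma adjusted p = 0.289).

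**Figure D2:**
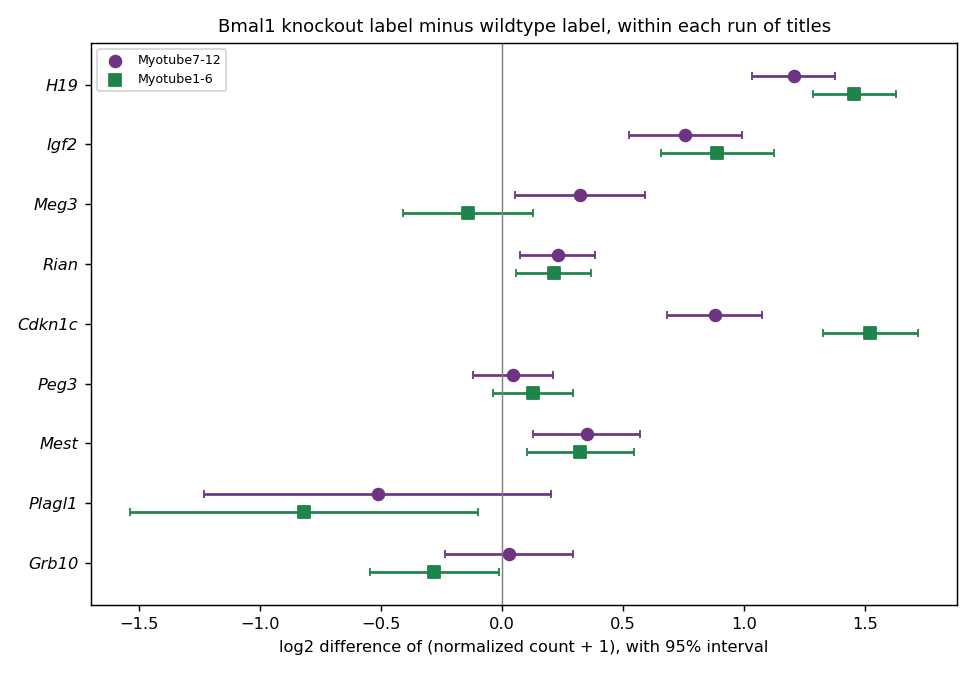
Log2 difference of knockout minus wildtype (horizontal axis) for the 9 genes with a mean of 10 or more, within Myotube7 to 12 (circles) and within Myotube1 to 6 (squares), with 95% intervals (bars). H19, Igf2 and Cdkn1c lie furthest to the right in both runs, with 1.20, 0.76 and 0.88 within Myotube7 to 12, and Plagl1 has the widest intervals.

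In the fit across 12553 genes, 5 of the 9 genes were called higher in knockout and 1, Plagl1, lower at an adjusted p of 0.05. Of all tested genes 30.7% were called, 16.2% higher and 14.5% lower. Within Myotube7 to 12, 5 were called higher and none lower, with 8.84% and 7.64% of all genes. Within Myotube1 to 6, 4 were called higher and none lower, with 10.8% and 7.97% of all genes. Labels did not overlap in 3 of the 10 (H19, Igf2 and Cdkn1c), and in 12.4% of all tested genes, 7.07% with knockout above and 5.38% below. The median difference of the 9 was 0.22, against -0.0015 over all tested genes. Since this contrast was known when the genes were chosen, nothing is read from these counts.

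The runs of titles were then compared within each label, a contrast in which low-oxygen marker genes Egln3 and Slc2a1 differ as given above. In the knockout libraries, 3 of the 9 genes rose in Myotube10 to 12 relative to Myotube4 to 6 and none fell, against 19% of all tested genes called, 11.2% higher and 7.89% lower. In the wildtype libraries, 3 of the 9 rose in Myotube7 to 9 relative to Myotube1 to 3 and none fell, against 16.8% of all genes called, 9.79% higher and 6.96% lower. Cdkn1c and Grb10 rose in both labels. Both comparisons use the fit over all 12 libraries, but they share no library. The genes were chosen by their levels in these libraries, so the values and p-values of this contrast are descriptions too. Nothing is read from its counts.

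Cdkn1c rose by 0.41 in knockout Myotube10 to 12 (SE 0.091, 95% interval 0.21 to 0.61, limma adjusted p = 0.00676), with all 3 libraries above Myotube4 to 6. In wildtype Myotube7 to 9 it rose by 1.05 (SE 0.091, 95% interval 0.86 to 1.25, limma adjusted p = 4.27e-06), again with all 3 above Myotube1 to 3. Grb10 rose by 0.94 in knockout Myotube10 to 12 (SE 0.12, limma adjusted p = 0.000131) and by 0.63 in wildtype Myotube7 to 9 (SE 0.12, limma adjusted p = 0.00312), in all 3 libraries each time. Without Myotube2 the wildtype value of Grb10 was 0.81.

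H19 rose by 0.46 in wildtype Myotube7 to 9 (SE 0.079, limma adjusted p = 0.00135), with all 3 libraries above Myotube1 to 3. In knockout Myotube10 to 12 the difference of H19 was 0.21 (95% interval 0.039 to 0.38, limma adjusted p = 0.0867), also with no overlap. Meg3 rose by 0.55 in knockout Myotube10 to 12 (SE 0.12, limma adjusted p = 0.00725), where its wildtype difference was 0.09 (95% interval -0.18 to 0.36). Mest had negative values in both labels, -0.28 in knockout (limma adjusted p = 0.0752) and -0.31 in wildtype (adjusted p = 0.0555), and without Myotube2 these were -0.28 (adjusted p = 0.0282) and -0.39 (adjusted p = 0.013), past the threshold. Igf2 had 0.07 in knockout and 0.20 in wildtype (limma adjusted p = 0.729 and 0.235), and without Myotube2 the wildtype value was 0.31 (adjusted p = 0.0369). Rian, Peg3 and Plagl1 did not pass in either label.

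**Figure D3:**
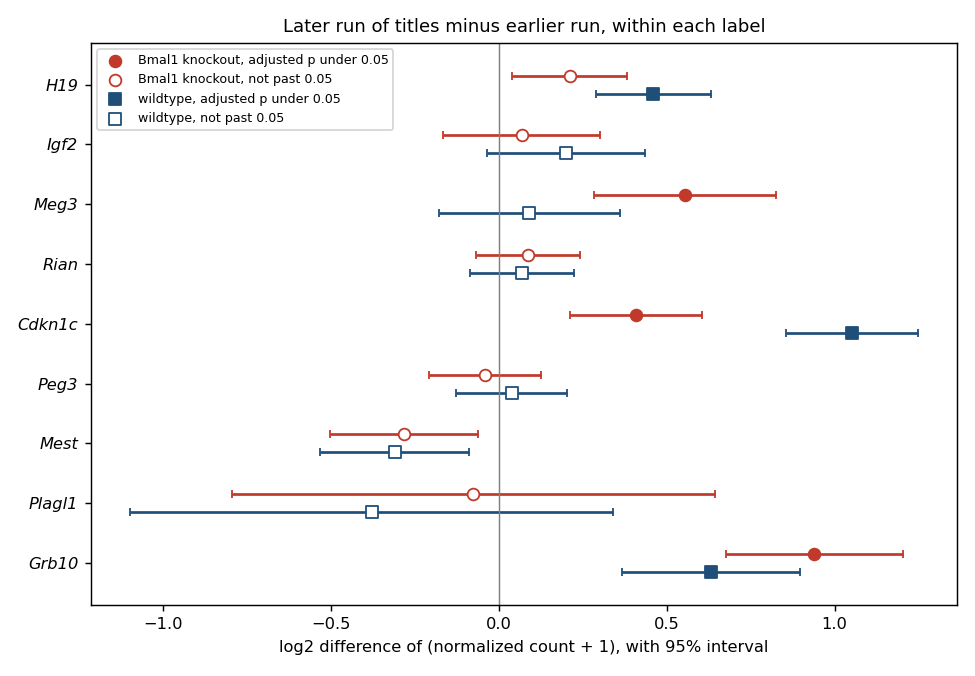
Log2 difference of the later titles minus the earlier titles (horizontal axis) within the knockout label (circles) and the wildtype label (squares), with 95% intervals (bars) and filled symbols for an adjusted p under 0.05. Cdkn1c and Grb10 are filled in both labels, H19 only in wildtype (0.46) and Meg3 only in knockout (0.55).

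Whether these effects differed between the labels was tested as an interaction. None of the 9 genes passed limma, and 1 of 12553 genes did (0.00797%). The smallest p of the 9 was that of Cdkn1c, whose label difference was smaller within Myotube7 to 12 than within Myotube1 to 6 by 0.64 on the log2 scale, an interaction of -0.64 (SE 0.13, unadjusted p = 0.000261, limma adjusted p = 0.273). DESeq2 called 31 genes, Cdkn1c among them (adjusted p = 0.0149). For H19 (-0.25), Meg3 (0.46) and Grb10 (0.31) the limma adjusted p was 0.582, 0.556 and 0.621, and unadjusted p was 0.0445, 0.0211 and 0.099. So the calls of H19 and Meg3 in 1 label only are not shown to differ between the labels.

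Across the 12 libraries, H19 and Igf2 followed each other with a Pearson correlation of 0.964 on the log2 scale, and with 0.456 once block means were removed. H19 and Cdkn1c had 0.941, and 0.391 within blocks. These values share libraries and scaling and are descriptions. Of the genes averaging 50 or more, those most like H19 were Acta1 (0.995), Tpm2, a tropomyosin (0.992), Rpl11, a ribosomal protein (0.991), Tnnt2, cardiac troponin T (0.988), and Rpl23a (0.985). Acta1 averaged 9686 in Myotube10 to 12 and 9100 in Myotube4 to 6, both knockout, against 4827 in Myotube7 to 9 and 3679 in Myotube1 to 3, both wildtype. Those most like Igf2 were Atp2a1, the fast muscle calcium pump (0.981), Npas2, a clock activator (0.981), Tnnt2 (0.973), Prkaca, a catalytic subunit of protein kinase A (0.971), and Scd1, a fatty acid desaturase (0.971).

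Markers of muscle cells moved in both directions between the labels. In the myotube list, 3 of 7 genes rose in knockout (Mymk by 1.56, Ckm by 1.44 and Acta1 by 1.16), 2 fell (Myog by 0.51 and Ttn by 0.36) and 2 did not pass, by limma. The median of the 7 was -0.057, where 16.2% of all genes rose and 14.5% fell. Within Myotube7 to 12, 3 of the 7 rose and none fell, with 8.84% and 7.64% of all genes. Within Myotube1 to 6, 3 rose and 2 fell, with 10.8% and 7.97% of all genes. Of 3 myoblast markers, Myf5 fell by 2.71 and Myod1 by 0.87. All 3 endothelial markers rose (Cdh5 by 0.56, Pecam1 by 0.43 and Kdr by 0.31). Of 5 measured fibroblast markers, Thy1 rose by 0.21, and Dcn fell by 0.21 and Lum by 0.47 over both runs. Within each run alone none of the 5 rose and 1 fell. The part of these cell markers in the differences of H19, Igf2 and Cdkn1c was not tested.

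Around H19, the genes within 1000 kb were looked at after the values had been seen. Besides H19, Igf2 and Cdkn1c, 17 genes of this window were in the fit, of which 8 rose in knockout, 1 fell and 8 did not pass, against 16.2% higher and 14.5% lower over all genes. Their median was 0.0097. The nearest tested gene on one side, Mrpl23, had 0.0097 (95% interval -0.33 to 0.35). Tnnt3, fast skeletal troponin T, 79.3 kb away, rose by 1.39 (SE 0.079, limma adjusted p = 1.46e-07). Tnni2, fast troponin I, rose by 0.56, Ctsd, the lysosomal protease cathepsin D, by 0.62, and Ifitm10 and Tollip by 0.61 and 0.26. On the Cdkn1c side, Tssc4, Cd81 and Nap1l4 rose by 0.50, 0.37 and 0.38, while Dusp8, a phosphatase gene on the other side, fell by 0.87. The counts within Myotube7 to 12 were 4 higher and 13 not passing, and within Myotube1 to 6 they were 7 higher, 1 lower and 9 not passing. Dusp8 had -0.20 within Myotube7 to 12 (limma adjusted p = 0.748) and -1.54 within Myotube1 to 6 (adjusted p = 0.00666). Nap1l4 had 0.16 within Myotube7 to 12 (limma adjusted p = 0.218) and 0.59 within Myotube1 to 6 (adjusted p = 0.000368). Ifitm10 passed in neither run alone (limma adjusted p = 0.392 within Myotube7 to 12 and 0.0857 within Myotube1 to 6). Tollip and Tssc4 passed within Myotube1 to 6 but not within Myotube7 to 12 (limma adjusted p = 0.138 and 0.0515). Kcnq1ot1, the paternal non-coding RNA of the Cdkn1c domain, did not pass (-0.10, 95% interval -0.32 to 0.12). It averaged 210 ± 31.4 in Myotube10 to 12 and 123 ± 7.05 in Myotube4 to 6, a rise of 0.76 within the knockout label (limma adjusted p = 0.00221). In wildtype it averaged 193 ± 33.6 in Myotube7 to 9 and 154 ± 9.05 in Myotube1 to 3, a difference of 0.31 (95% interval -0.0023 to 0.62, limma adjusted p = 0.167), and the interaction of 0.45 did not pass (adjusted p = 0.582). Phlda2, of the same domain, was at or below 1.95 everywhere.

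**Figure D4:**
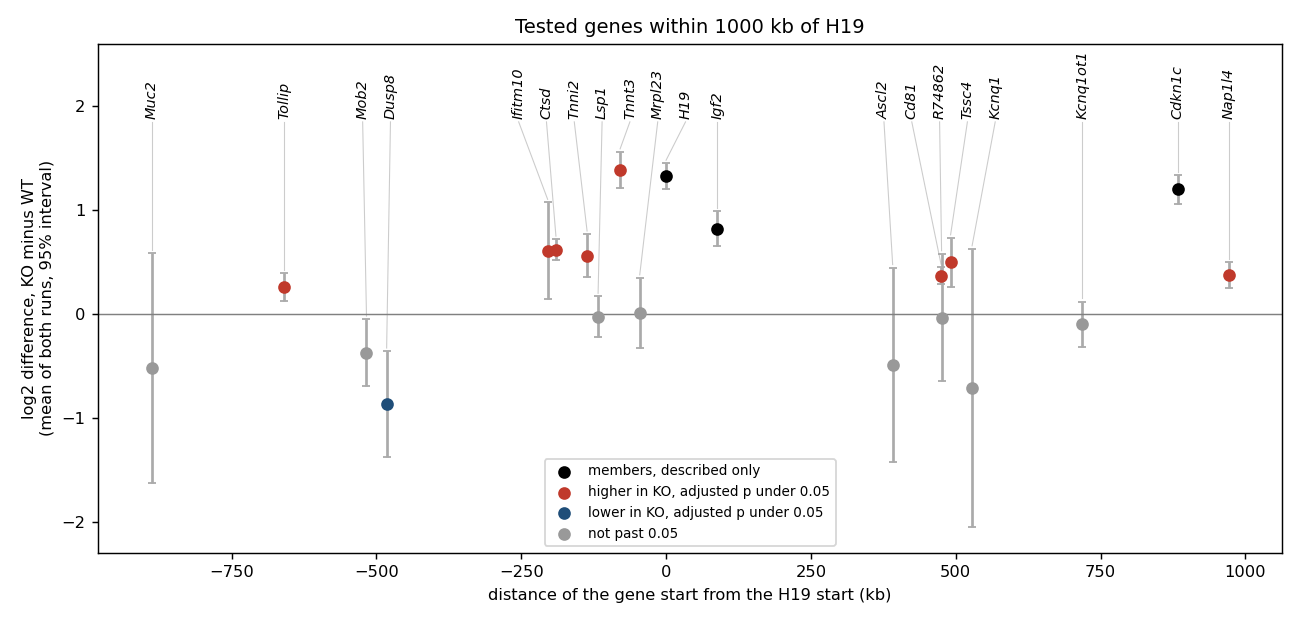
Log2 difference of knockout minus wildtype over both runs (vertical axis, with 95% intervals) of the genes in the fit within 1000 kb of H19, by the distance of their start from that of H19 in kb (horizontal axis). Black points are H19, Igf2 and Cdkn1c, red points rose, the blue point fell and grey points did not pass, and Tnnt3 (1.39) lies beside H19 (1.33) while Mrpl23 between them lies at 0.0097.

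In the Dlk1, Meg3 and Rian domain, Mirg, a non-coding RNA gene downstream of Rian, had -0.02 between the labels (95% interval -0.30 to 0.27), and Rtl1 was at or below 2.12 in every library. Dio3, which encodes the deiodinase that inactivates thyroid hormone, fell in the later titles in both labels. It averaged 4.88 ± 3.41 in Myotube10 to 12 and 25.9 ± 3.52 in Myotube4 to 6, both knockout, a fall of 2.42 (limma adjusted p = 0.00323). In wildtype it averaged 5.01 ± 1.18 in Myotube7 to 9 and 40.0 ± 9.78 in Myotube1 to 3, a fall of 2.76 (limma adjusted p = 0.00144). Besides Meg3 and Rian, 10 genes within 1000 kb of Meg3 were in the fit, and 2 rose in knockout (Begain by 0.91 and Ppp2r5c by 0.23), of which neither passed within either run of titles alone. Beside Peg3, Zim1 fell by 0.97 in knockout (SE 0.32, limma adjusted p = 0.0379), at 8.71 to 19.2 against 6.19 to 39.4 in wildtype libraries, and Usp29 was at or below 5.66. Beside Grb10, Ddc (-0.13) and Cobl (0.34) did not pass.

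Of 55 other imprinted genes listed, 49 were in the table and 36 in the fit. Between the labels 7 rose, 4 fell and 25 did not pass, where 16.2% of all genes rose and 14.5% fell, and the median was -0.00081 against -0.0015 over all genes. Tssc4, Gnas, which encodes the stimulatory G protein subunit, and Nap1l4 led the rises (0.50, 0.39 and 0.38). Igf2r rose by 0.29, Cd81 by 0.37, Peg10 by 0.33 and H13 by 0.14. Zim1, Copg2 and Zdbf2 led the falls (0.97, 0.63 and 0.53), followed by Ube3a, a ubiquitin ligase gene, at 298 ± 19.4 and 338 ± 21.7 in the later and earlier knockout blocks against 441 ± 21.0 and 457 ± 3.78 in the later and earlier wildtype blocks (SD, n = 3 each). Without Myotube2 the counts over both runs were 8 and 4. Within Myotube7 to 12, 3 of the 36 rose and 1 fell, with 8.84% and 7.64% of all genes. Within Myotube1 to 6, 5 rose and 3 fell, with 10.8% and 7.97% of all genes. Between the runs, Ascl2 stood out, chosen after its values were seen. It lay at 17.5 to 30.4 in Myotube10 to 12 and 0 to 0.887 in Myotube4 to 6, both knockout, against 31.4 to 43.8 in Myotube7 to 9 and 0 to 3.10 in Myotube1 to 3, both wildtype.

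The IGF axis, that is, the factors, receptors, binding proteins and their regulators, had 18 of 20 listed genes in the fit. Between the labels 7 rose, 1 fell and 10 did not pass, with a median of 0.27, where 16.2% of all genes rose and 14.5% fell and the median was -0.0015. In Myotube7 to 12 alone, 7 rose and 11 did not pass, and within Myotube1 to 6, 6 rose and 2 fell. Igf1, the paralogue of Igf2, averaged 132 ± 5.59 and 156 ± 15.5 in the later and earlier knockout blocks against 72.4 ± 15.3 and 94.2 ± 15.3 in the later and earlier wildtype blocks (SD, n = 3 each), a rise of 0.80 (SE 0.12, limma adjusted p = 0.00024). Among the binding proteins, the rises were Igfbp6 (0.58), Igfbp5 (0.57), Igfbp4 (0.49), Igfbp3 (0.47) and Igfbp7 (0.43). The clearance receptor Igf2r rose too (0.29, limma adjusted p = 0.000971), and it is also counted among the other imprinted genes. Stc2, stanniocalcin 2, an inhibitor of the protease that cuts Igfbp4, fell by 0.28 over both runs. It averaged 570 ± 14.6 in Myotube10 to 12 and 109 ± 9.14 in Myotube4 to 6, both knockout, against 585 ± 17.5 in Myotube7 to 9 and 158 ± 28.6 in Myotube1 to 3, both wildtype (SD, n = 3 each). Its label difference was -0.036 within Myotube7 to 12 (limma adjusted p = 0.884) and -0.52 within Myotube1 to 6 (adjusted p = 0.0102). Between the runs Stc2 rose by 2.38 in knockout Myotube10 to 12 and 1.89 in wildtype Myotube7 to 9 (limma adjusted p = 3.84e-08 and 3.28e-07). Igf1r, the signalling receptor, also differed by run of titles, with rises of 0.76 in knockout Myotube10 to 12 and 0.54 in wildtype Myotube7 to 9 (limma adjusted p = 0.000182 and 0.00278). Without Myotube2 the label counts were 8 and 1.

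The 19 listed regulators of imprinting had 17 genes in the fit, of which 2 rose, 3 fell and 12 did not pass, with a median of -0.11, where 16.2% of all genes rose and 14.5% fell. Within Myotube7 to 12 none of the 17 passed limma (5 had an unadjusted p under 0.05, and DESeq2 called 1), and within Myotube1 to 6, 1 rose and 2 fell. Hmga2, a chromatin protein that regulates Igf2bp2, and Trim28, the corepressor of zinc finger proteins that guard imprints, rose by 0.41 and 0.29. Tet2, an enzyme that oxidises methylated DNA, Zfp445, an imprint-binding zinc finger protein, and Smchd1, a chromatin silencing protein, fell by 0.38, 0.32 and 0.19 over both runs. Tet2 averaged 404 ± 17.5 in Myotube10 to 12 and 137 ± 5.22 in Myotube4 to 6, both knockout, against 420 ± 7.37 in Myotube7 to 9 and 226 ± 47.5 in Myotube1 to 3, both wildtype (SD, n = 3 each). Its label difference was -0.055 within Myotube7 to 12 (limma adjusted p = 0.814) and -0.70 within Myotube1 to 6 (adjusted p = 0.00159). Without Myotube2 the counts were 3 and 3. DNA methylation and the parental origin of reads were not measured.

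**Figure D5:**
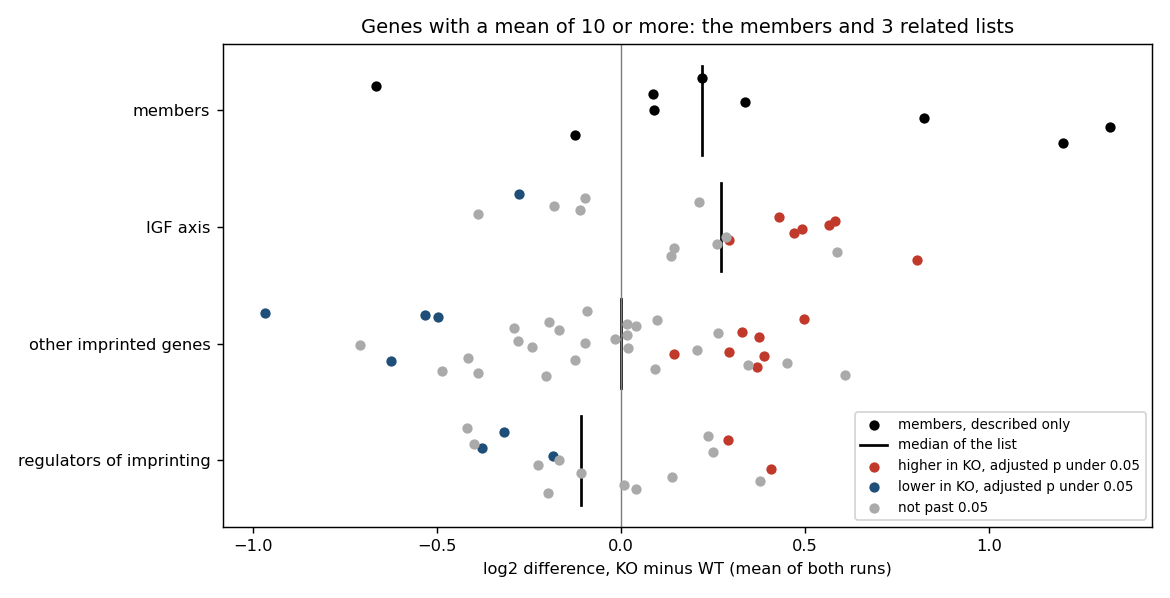
Log2 difference of knockout minus wildtype over both runs (horizontal axis) for the 9 genes in the fit (black) and for the IGF axis, other imprinted genes and regulators of imprinting (red rose, blue fell, grey did not pass), with the median of each list (bars). The medians were 0.22, 0.27, -0.00081 and -0.11.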

How the data were processed

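The data were 12 stranded total RNA libraries of mouse primary myotubes. The tools named in the submitters' processing notes are Trimmomatic 0.33, STAR 2.5.2 (genome build mm10), RSEM 1.3.3 and DESeq2, with no order stated. The authors deposited a normalized signal for 20201 genes. All values were whole reads divided by 1 factor per library within 1e-06 reads, so recovered counts could be used for the count tests. RSEM shares ambiguous reads among genes by estimate. GENCODE M21 named 19970 genes (98.9%). The 11 abundant genes left out in 1 scaling were Lars2 and genes not annotated as protein-coding, each with at least 0.3% of reads in some library. They took 50.6% to 66.5% of reads, and other abundant protein-coding genes stayed in.

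The main fit was limma 3.58.1 (trended prior, two-sided, p-values adjusted by Benjamini-Hochberg over the 12553 genes averaging 10 or more) on log2(normalized count + 1), with 1 mean per block. Log2 differences are on that scale, which understates changes of low genes. It was also run on simulated data, and no result given here rests on that run. Alternatives were pseudocounts of 0.5 and 10, no filter, a minimum mean of 50, other scalings, library weights, a fit without the runs of titles, edgeR 4.0.16, DESeq2 1.42.0 and each library left out. Ratios, gene windows and counts without Myotube2 were added after seeing the data. R 4.3.3 and Python 3.11.15 were used.

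The genes and lists were chosen with earlier results of these data known. Named were Arntl, the 10 genes, the 5 genes most like H19 and Igf2 among 8927 with a mean of 50 or more, the 3 largest rises and falls of each list and genes of the same loci, besides those the text says were added.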

Additional observations from a re-analysis of the deposited data

Results flagged for a closer look

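Plagl1 in the wildtype library Myotube2 stood at 639.6 normalized counts, far from the other 5 wildtype libraries, which lay at 189 to 273. The gap to the nearest of them was 0.813 of the range of the group. It was the only 1 of 20 tests, 10 genes in 2 labels, in which a single library stood out this way, and chance gives about 1 such flag in 20. Myotube2 also had the most genes at 0 (29.6%), and the part of this in the value was not tested.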

How the results depend on the processing

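No paired analysis was possible because replicate numbers follow accession order and pair no libraries, so no fit with a replicate block was made. Over 49 values and 1087 recomputed settings, 992 kept direction and side of the threshold, 41 fell below it, 31 passed it and 23 changed sign. Those that fell below it were label differences of Plagl1, Mest and Rian only. Plagl1 did so over both runs in 10 of 23 settings. Mest did so in 1 of 23 over both runs, 6 of 22 within Myotube7 to 12 and 10 of 22 within Myotube1 to 6. Rian did so in 2 of 23 over both runs and 12 of 22 within Myotube7 to 12. Over both runs, the label differences of the genes ranged over the settings from 0.88 to 1.37 for H19, 0.47 to 0.88 for Igf2 and 1.04 to 1.24 for Cdkn1c. They ranged from 0.18 to 0.37 for Mest, -0.82 to -0.40 for Plagl1 and 0.060 to 0.25 for Rian. For Grb10 they ranged from -0.35 to -0.039, for Peg3 from -0.12 to 0.12 and for Meg3 from -0.068 to 0.15. These are descriptions, since the genes were chosen on this contrast.

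Of the counts over all genes, the label contrast over both runs gave 2416 calls without the runs of titles in the fit, against 3857. Within Myotube7 to 12 it gave 3242 with library weights, against 2069. The interaction gave 3 with library weights and 31 with DESeq2, against 1. Leaving out 1 library gave 3111 to 4456 over both runs, 1190 to 3082 within Myotube7 to 12, 1572 to 2403 within Myotube1 to 6, 1777 to 3401 between runs in knockout, 1435 to 2145 between runs in wildtype and 1 to 4 for the interaction. The highest of these over both runs, within both runs and between runs in knockout came without Myotube2. The causes were not tested.

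The values that changed sign follow. With quantile normalization they were Peg3 over both runs (-0.12), within Myotube7 to 12 (-0.12), within Myotube1 to 6 (-0.11) and between runs in wildtype (-0.10), Grb10 within Myotube7 to 12 (-0.18), and Rian between runs in knockout (-0.024) and wildtype (-0.058). With the 11 abundant genes left out they were Peg3 in the same 4 contrasts (-0.073, -0.11, -0.035 and -0.049), Grb10 within Myotube7 to 12 (-0.13), Meg3 over both runs (-0.068), Rian between runs in wildtype (-0.018) and Igf2 between runs in knockout (-0.017). That scaling also moved the median of all genes, to -0.16 over both runs, -0.15 within Myotube7 to 12 and -0.16 within Myotube1 to 6. Between runs this median was -0.079 in wildtype and -0.11 in knockout. Library weights turned Plagl1 between runs in wildtype to 0.064. Leaving out 1 library gave -0.65 to 0.14 for Plagl1 between runs in wildtype and -0.21 to 0.0068 in knockout, -0.0025 to 0.075 for Grb10 within Myotube7 to 12, and between runs in wildtype -0.016 to 0.17 for Meg3 and -0.021 to 0.11 for Peg3.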
